A study of Mus musculus with 6 samples.

Results

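The carbonic anhydrases of the submandibular gland (SMG) of female mice were examined as 10 genes, Car2, Car3, Car4, Car5b, Car6, Car8, Car9, Car11, Car12 and Car13. They were taken by symbol, as a fixed list, from the 43280 rows of the raw count table. The list leaves out 6 further rows of the family and was chosen with earlier results of these data known. All 10 had a row, and all 10 were among the 18606 rows that passed the filter on low counts, which asked for at least 10 counts summed over the 6 libraries. The libraries were made from 3 glands labelled wildtype (WT) and 3 labelled Hs3st3a1;3b1 DKO, numbered 1, 4 and 5 in both groups. DKO mice lack 2 heparan sulfate 3-O-sulfotransferases in all cells from conception. Their Hs3st3a1 allele carries a frameshift made by a zinc finger nuclease in exon 1, and their Hs3st3b1 allele carries a LacZ cassette on the same chromosome. The single-knockout strains were on a C57BL/6 background and WT mice were littermates. The glands were from adults, and neither the age in weeks nor the founder line of each mouse was given in the sources used here.

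Carbonic anhydrases catalyse the reversible hydration of carbon dioxide to bicarbonate and a proton, with a zinc ion held by histidines at the active site. In salivary glands the reaction feeds bicarbonate secretion and proton transport, and saliva owes much of its buffering to bicarbonate. Car6 is the isoenzyme secreted into saliva. Car2, Car3 and Car13 are cytosolic, Car5b is mitochondrial, Car4 is anchored to the outer membrane face by a lipid, and Car9 and Car12 span the membrane with their active site outside. Car8 and Car11 are related proteins without carbonic anhydrase activity.

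The zinc site shows this division in the coding sequence. The stretches printed here are shown because they separate the enzymes from the inactive relatives. They are the 7 codons around the first and second zinc-binding histidines of each member, on the coding strand, 5′ to 3′, from the GENCODE M21 transcripts of GRCm38. Capitals mark the codons aligned with codons 94 and 96 of Car2, counted from the start codon.
Car2: cagtttCACtttCACtggggc
Car13: cagttcCATttgCACtggggg
Car3: caattcCATcttCACtggggc
Car5b: cagtttCATtttCATtgggga
Car6: gcctttCACtttCACtggggg
Car4: cagttgCACctgCACtggtca
Car12: cagctgCACttgCACtggggg
Car9: cagttgCATctaCACtgggga
Car8: gaagttAGAtttCACtgggga
Car11: gaactgCGCctgCTAtttgga

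CAC and CAT both encode histidine. In 8 of the 10 members every capital codon is CAC or CAT. Car8 has an arginine codon, AGA, at the first position. Car11 has an arginine codon, CGC, at the first and a leucine codon, CTA, at the second. The third zinc-binding histidine, codon 119 of Car2, lies in a second stretch, shown for Car2, for Car6 and for the 2 inactive members.
Car2: gagcttCACttggttcactgg
Car6: gaggctCACtttgttcacttc
Car8: gagctcCACctgatccactgg
Car11: gaggtgCAGctaatccacttc

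Only Car11 of the 10 lacks histidine at all 3 positions, where its last codon of the 3 is CAG for glutamine. Car8 keeps 2 of the 3. The 6 other family rows of the table were read in the same way, and among them only Car10 departed, with 1 histidine codon of 3. Over the aligned residues, protein identity to Car2 was 56.9% for Car3, 56.5% for Car13 and 51.5% for Car5b. It was 43.3% for Car8, between 36.7% and 38.4% for Car6, Car9 and Car12, and 33.3% for Car4 and Car11.

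Total counts ranged from 23674258 to 29611975 per library. The targeted genes did not separate the groups. Hs3st3b1 had 173 to 261 counts in the WT libraries and 120 to 255 in the DKO libraries, and Hs3st3a1 had 11 to 15 and 8 to 13. Groups are therefore named by their labels, and every direction rests on those labels. Some libraries held genes of neighbouring glands. The summed normalized count of 4 sublingual gland genes (Muc19, Dcpp1, Dcpp2 and Dcpp3) was 90185 in WT 5 and 6361 in DKO 1, against 84.2 to 140 in the other 4. The parotid list (Amy1, Bpifa2, Prb1 and Prh1) summed to 103814 in WT 5 and 3676 in DKO 1, against 225 to 356 in the others. The same 2 libraries were far lower in Ren1, the renin gene, a granular duct product, with 83.3 in WT 5 and 113 in DKO 1 against 12505 to 48304 in the others. Results are therefore also given without these 2 libraries. The gland's own defining genes were present in all libraries, with Aqp5 of acini between 3983 and 8161 normalized counts and Egf of granular ducts between 33869 and 70042.

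**Figure D1:**
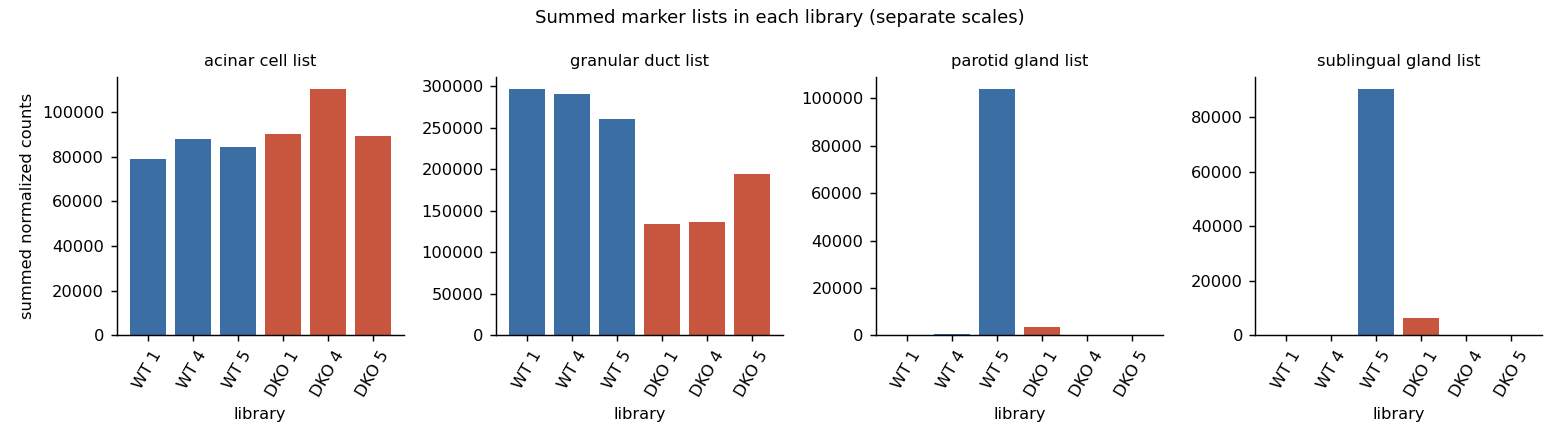
Summed normalized counts (vertical axes, separate scales) of the acinar cell, granular duct, parotid gland and sublingual gland lists in each of the 6 libraries, as 1 bar per library, blue for WT and red for DKO. Sublingual and parotid genes stand at 90185 and 103814 in WT 5, and the granular duct sum is lower in each DKO library (at most 194432) than in each WT library (at least 260047).

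Across the whole table, 539 rows (2.90%) had an adjusted p-value under 0.05 by the Wald test of DESeq2, and none of the 10 carbonic anhydrases was among them. By DESeq2, 3 of the 10 (Car6, Car8 and Car13) had an unadjusted p-value under 0.05, against 12.2% of all rows. The edgeR quasi-likelihood test and limma-voom called 0 of the 10 as well, and they called 10 and 7 rows of the whole table. The groups did not overlap for 3 of the 10 members, Car5b with higher values and Car8 and Car13 with lower values in the DKO libraries. Rows without overlap made up 20.3% of all rows tested, 9.85% with higher and 10.5% with lower values. The median log2 fold change, DKO over WT, was 0.16 for the 10 members and 0.001 for all rows. The median absolute log2 fold change was 0.37 for the members and 0.20 for all rows. The member median includes Car3, Car4, Car9 and Car11, whose low counts gave SEs of 0.53 to 1.26.

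Levels between genes were compared as normalized counts per kilobase (kb) of annotated exon, averaged over the 6 libraries. Car6 stood at 421991 per kb, 587 times the next member. Car12 followed with 719, then Car2 with 288, Car13 with 255, Car8 with 126 and Car5b with 37.0. Car11 and Car4 had 10.1 each, Car9 had 2.68 and Car3 had 1.71. The ranges over the 6 libraries overlapped between Car2 and Car13, between Car11 and Car4 and between Car9 and Car3, so the order within these pairs did not exceed the spread between libraries. All other neighbours in the order were separated in every library. Exon length was taken as the union of all annotated transcripts, which understates genes whose long transcripts are not used in this tissue.

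**Figure D2:**
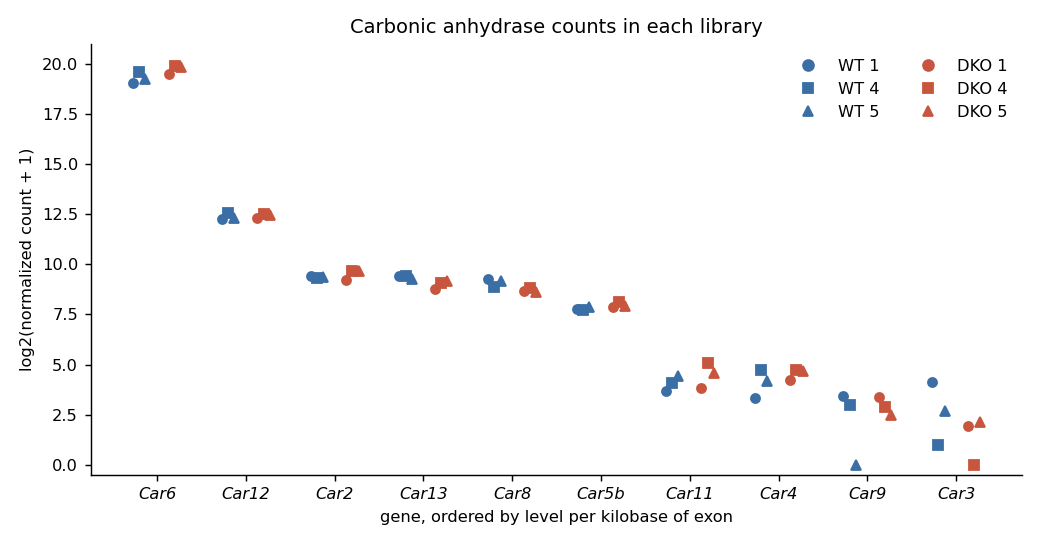
Counts of the 10 carbonic anhydrases in each library, as log2(normalized count + 1) on the vertical axis, with genes ordered by level per kb and 1 symbol per library (blue WT, red DKO, shape for the library number). Car6 lies far above the rest, and the values of Car9 and Car3 fall to 0 in 1 library each.

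Car6, the secreted salivary form (chromosome 4, 150187015 to 150201332, minus strand), was among the 5 most abundant rows of every library. Its share of a library's total was 2.61% ± 0.341 (SD, n = 3) for WT and 3.02% ± 0.205 (SD, n = 3) for DKO. Of the counts of all 10 members together, it held between 98.7% and 99.2% in each library. The other 9 members summed to between 6626 and 8262 counts per library.

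The normalized counts of Car6 were 540162, 785216 and 620551 in WT 1, 4 and 5, and 746047, 971549 and 934484 in DKO 1, 4 and 5. WT 1 was the lowest library and DKO 4 the highest, and the groups overlapped, with WT 4 above DKO 1. DKO exceeded WT by 0.45 on the log2 scale (SE 0.14, 95% interval 0.16 to 0.73), a 1.36-fold higher mean that missed the threshold (DESeq2 adjusted p = 0.0559). The value was positive under all 15 alternatives, from 0.21 to 0.61. The call changed when some single libraries were left out. The DESeq2 adjusted p-value was 0.00135 without WT 4 and 0.0146 without DKO 1, and it rose to 0.503 without WT 1. Without both WT 5 and DKO 1, the libraries with sublingual and parotid genes, the value was 0.52 (DESeq2 adjusted p = 0.137). The parotid gland also secretes this enzyme. The part of parotid tissue in the level of Car6 was not tested.

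Of the 8 genes of the acinar list, 3 rose (Aqp5, Agr2 and Agt), against 1.02% of all rows, and none fell. The groups did not overlap for 5 of the 8, all higher in DKO, against 9.85% of all rows. Of the 5 genes that did not pass the threshold, Slc12a2 had a log2 fold change of -0.08, and Bhlha15, Lpo, Ano1 and Chrm3 had values of 0.17 to 0.54. The list's summed normalized counts ran from 78972 to 87829 in the WT and from 89236 to 110184 in the DKO libraries. Most of each sum came from Slc12a2 and Lpo, which did not pass the threshold. In whole glands, more acinar cells and more Car6 RNA per acinar cell cannot be told apart, and the same holds for every gene described here. Both defining acinar genes, Aqp5 and Bhlha15, were without overlap, and their part in the level of Car6 was not tested.

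The rows closest to Car6 in pattern were sought among 11483 rows with a mean of at least 50 normalized counts. Each row was centred on its own mean of log2(normalized count + 1) over the 6 libraries, and the root-mean-square difference from Car6 was taken. The smallest difference was that of Nr4a1, an orphan nuclear receptor gene, at 0.0392, against a median of 0.316 for all candidates. Nr4a1 gave 528, 788 and 647 normalized counts in WT 1, 4 and 5 and 776, 961 and 911 in DKO 1, 4 and 5. Ubr2, a ubiquitin ligase gene, came next with a difference of 0.0522, and the row 8430419L09Rik followed with 0.0634. From lowest to highest, the 6 libraries stood in the same order for all 3 as for Car6, from WT 1 to DKO 4. Of the 3, Ubr2 rose by DESeq2 (log2 fold change 0.55, adjusted p = 0.0171), while Nr4a1 (0.43, adjusted p = 0.111) and 8430419L09Rik (0.47, adjusted p = 0.0758) missed the threshold. Likeness over 6 libraries is a description of these values alone. The 3 rows were picked for it, so their like order and direction follow from the selection and are not separate results.

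**Figure D3:**
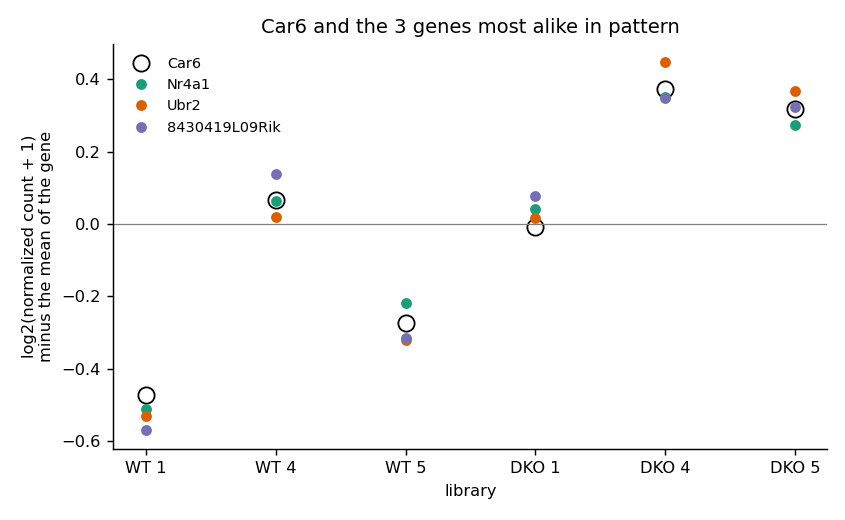
Car6 (open circles) and the 3 rows most alike in pattern, Nr4a1, Ubr2 and 8430419L09Rik (filled points), as log2(normalized count + 1) minus the mean of each gene, in each of the 6 libraries. All 4 genes are lowest in WT 1, below their own mean in WT 5, and highest in DKO 4 and DKO 5.

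Of the cytosolic enzymes, Car2 is the fast, widespread form, known from ducts and red cells. Car2 (chromosome 3, 14886273 to 14900770, plus strand) gave 673, 644 and 667 normalized counts in WT 1, 4 and 5, and 594, 809 and 801 in DKO 1, 4 and 5. The DKO libraries included both the lowest value, in DKO 1, and the highest, in DKO 4. The fitted log2 fold change of 0.15 had an SE of 0.14 and a 95% interval of -0.13 to 0.43 (DESeq2 adjusted p = 0.755). Red cell genes were higher in the DKO libraries. Of the 7 genes tested from the erythrocyte list, 4 rose, all of them globin genes, against 1.02% of all rows. The list's 8 rows summed to 864 to 1780 in the WT and 2841 to 3177 in the DKO libraries. Of its defining genes Hba-a1 rose and Alas2 had a DESeq2 adjusted p-value of 0.0816, while Car1, the other red cell carbonic anhydrase, had 0 counts in all 6 libraries. The part of red cells in the level of Car2 was not tested.

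Car13, another cytosolic form, lies beside Car1, Car3 and Car2 on chromosome 3 (14641727 to 14663002, plus strand). It gave 677, 674 and 622 normalized counts in WT 1, 4 and 5, and 435, 536 and 573 in DKO 1, 4 and 5. Every DKO library was below every WT library. The difference was -0.36 on the log2 scale (SE 0.14, 95% interval -0.62 to -0.09), and it did not pass the threshold (DESeq2 adjusted p = 0.142). Without DKO 1, the lowest library, it was -0.24 (DESeq2 adjusted p = 0.318), and without both WT 5 and DKO 1 it was -0.29 (DESeq2 adjusted p = 0.779).

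Since Car13 and Car2 are both cytosolic and stood at a like level per kb, their counts were also set against each other within each library, where scaling between libraries drops out. This ratio was chosen after the values had been seen. Car13 had 1.01, 1.05 and 0.933 counts per count of Car2 in WT 1, 4 and 5, and 0.732, 0.663 and 0.715 in DKO 1, 4 and 5. The ratio averaged 0.995 ± 0.0578 (SD, n = 3) in the WT and 0.703 ± 0.0359 (SD, n = 3) in the DKO libraries, without overlap. Car2 was thus counted about as often as Car13 in each WT library and more often in each DKO library. Of the other ratios to Car2 computed, likewise chosen after the values had been seen, that of Car8 averaged 0.838 ± 0.0992 (SD, n = 3) in the WT and 0.573 ± 0.101 (SD, n = 3) in the DKO libraries, without overlap, and that of Car12 averaged 8.14 ± 1.08 (SD, n = 3) and 7.66 ± 0.908 (SD, n = 3), with overlap.

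Car3 is the slow cytosolic enzyme of muscle and fat. Car3 (chromosome 3, 14863512 to 14872523, plus strand) was barely detected, with 17, 1 and 6 counts in WT 1, 4 and 5, and 3, 0 and 3 in DKO 1, 4 and 5. WT 1 alone held more than the other 5 libraries together. Its log2 fold change was -1.88 (SE 1.26, 95% interval -4.35 to 0.59), and DESeq2 gave no adjusted p-value because of the low mean. Without WT 1 it was -0.61. The defining fat cell genes Adipoq and Plin1 had at most 3.80 and 3.96 normalized counts in any library, and the defining muscle gene Acta1 at most 3.96. The list of 10 fat cell genes summed to 583 in WT 1 and between 461 and 747 in all 6 libraries, most of it from Lpl and Fabp4. The list of 8 muscle genes summed to between 48.5 and 58.7, most of it from Ckm, the other defining muscle gene, with Myh4 and Actn3 at 0 in all libraries.

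Car5b, a mitochondrial form (chromosome X, 163976822 to 164027997, minus strand), was higher in each DKO library than in any WT library by a narrow margin. Normalized counts were 220, 210 and 233 in WT 1, 4 and 5 and 235, 274 and 240 in DKO 1, 4 and 5. This gave a log2 difference of 0.18 with a 95% interval of -0.14 to 0.49 (SE 0.16, DESeq2 adjusted p = 0.746). Its sign turned when libraries were scaled by total counts, to -0.06.

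Car12, a transmembrane form that faces the lumen or the interstitium of many secretory epithelia, was the second most abundant member. Car12 (chromosome 9, 66713686 to 66766845, plus strand) gave 4986, 6036 and 5087 normalized counts in WT 1, 4 and 5, and 5161, 5931 and 5583 in DKO 1, 4 and 5. All 3 DKO values lay within the range of the WT libraries. A log2 fold change of 0.05 was fitted (SE 0.11), and its 95% interval, -0.16 to 0.26, was the narrowest of the 10 members. Scaling by total counts gave -0.18, and leaving out WT 1 brought the value to -0.00072.

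Car9 is the transmembrane form induced by low oxygen. Car9 (chromosome 4, 43506966 to 43513729, plus strand) had 10, 7 and 0 counts in WT 1, 4 and 5, and 10, 6 and 4 in DKO 1, 4 and 5. The highest counts of both groups were equal, and the count of 0 in WT 5 allows up to 3 counts, or 0.110 CPM (counts scaled by the library total), for counting error only. The fitted difference of 0.30 on the log2 scale (SE 1.04, DESeq2 adjusted p = 0.956) turned to -0.29 without WT 5, to -0.03 without DKO 1 and to -0.62 without both. Exons of Car9 overlap those of the antisense gene Gm12454, and since the libraries carried no strand, reads of that stretch could come from either gene. Of 9 other genes known to respond to low oxygen, Vegfa and Slc2a1 among them, 0 passed the threshold by DESeq2. Before adjustment 1 did so (P4ha1, lower in DKO), against 12.2% of all rows. The 9 genes had a median difference of 0.05 on the log2 scale, and their sum ran from 4153 to 4305 in the WT and from 3955 to 4522 in the DKO libraries.

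Car4 is the lipid-anchored form known from capillary endothelium and some epithelia. Car4 (chromosome 11, 84957786 to 84966044, plus strand) had 9, 26 and 19 counts in WT 1, 4 and 5, and 19, 24 and 21 in DKO 1, 4 and 5. WT 1 was lowest, WT 4 was highest, and the DKO libraries lay between them. The fitted difference on the log2 scale was 0.39 with a 95% interval of -0.64 to 1.42 (SE 0.53, DESeq2 adjusted p = 0.867), and it was 0.08 without WT 1 and 0.78 without WT 4. Of the 8 endothelial genes listed, 0 passed the threshold by DESeq2 and 2 did so before adjustment, against 12.2% of all rows. Another count, of genes higher without overlap, was 3, against 9.85% of all rows, with the defining genes Pecam1 and Cdh5 among the 3. The sum of the 8 genes ran from 1455 to 1866 in the WT and from 1750 to 2299 in the DKO libraries. Both the sum and Car4 were lowest in WT 1, and their relation was not tested.

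Car8 encodes an inactive relative known for binding the inositol trisphosphate receptor, a calcium release channel. Car8 (chromosome 4, 8143362 to 8239041, minus strand) was the fifth most abundant member, and its normalized counts were 619, 469 and 578 in WT 1, 4 and 5, and 405, 447 and 387 in DKO 1, 4 and 5. Every DKO library was below every WT library, with WT 4 and DKO 4 closest. A difference of -0.43 on the log2 scale was fitted (SE 0.15, 95% interval -0.71 to -0.14), and the DESeq2 adjusted p-value of 0.0782 missed the threshold. It was 0.00939 without WT 4, 0.535 without WT 1 and 0.726 without both WT 5 and DKO 1. The value was negative under all 15 alternatives, from -0.67 to -0.34.

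Granular duct and myoepithelial genes were lower in the same libraries as Car8 and Car13. For the counts that follow, 1.88% of all rows fell and 10.5% were lower without overlap. Of the 10 granular duct genes listed, 8 fell and none rose, and the defining gene Egf was among the 8. Their sum ran from 260047 to 295897 in the WT and from 133456 to 194432 in the DKO libraries. Of the 10 genes of striated and excretory ducts, 1 fell (Scnn1g) and 6 were lower without overlap, Krt19 among them, while the other defining gene Klk1 overlapped. Their sum ran from 139801 to 195394 in the WT and from 187612 to 245790 in the DKO libraries, most of it from Klk1. Of 7 myoepithelial genes, 6 fell, with sums of 10167 to 10993 in the WT and 5557 to 7361 in the DKO libraries, and both defining genes, Acta2 and Cnn1, were among the 6. None of 5 ionocyte genes or 6 nerve and Schwann cell genes passed the threshold by DESeq2, and 0 of either list did so before adjustment. Of 8 lymphocyte and plasma cell genes tested, 4 fell, with sums of 1628 to 6091 in the WT and 534 to 2815 in the DKO libraries. The part of any of these cells in the levels of Car8 and Car13 was not tested.

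Car11, the inactive relative without zinc-binding histidines, was near the lower end of detection. Car11 (chromosome 7, 45699843 to 45704682, plus strand) had 12, 16 and 23 counts in WT 1, 4 and 5, and 14, 31 and 20 in DKO 1, 4 and 5. The groups overlapped, with DKO 4 highest. The 95% interval ran from -0.54 to 1.55 around a log2 difference of 0.51 (SE 0.53, DESeq2 adjusted p = 0.801), which was 0.17 without DKO 4. The 2 inactive relatives therefore had fitted values of opposite sign, and only Car8 was without overlap.

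**Figure D4:**
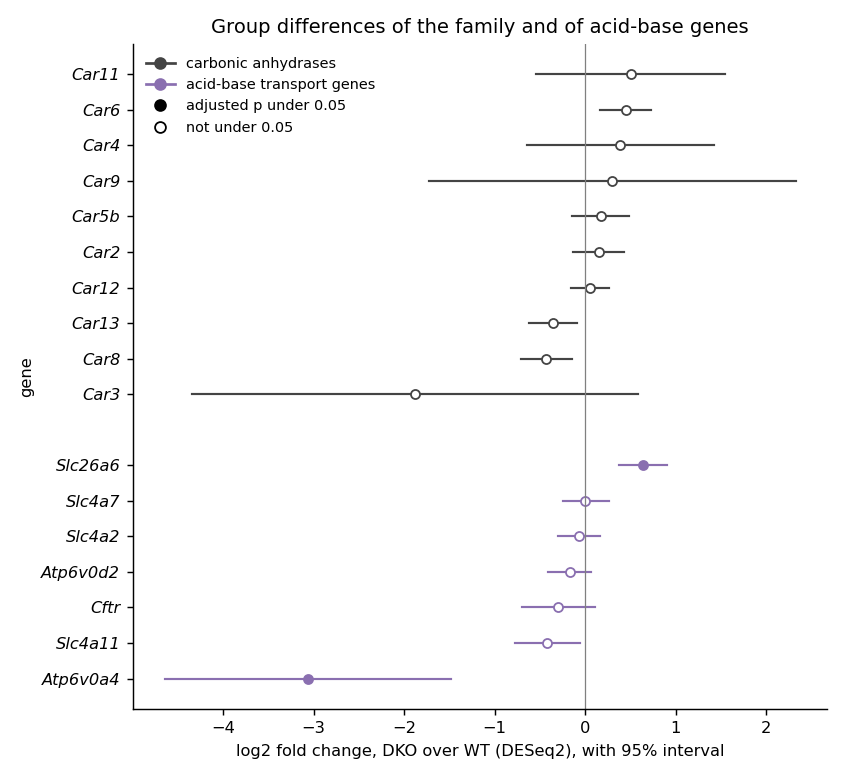
Log2 fold changes, DKO over WT, with 95% intervals for the 10 carbonic anhydrases (grey) and the acid-base transport genes described in the text (purple), where filled symbols have a DESeq2 adjusted p-value under 0.05. No carbonic anhydrase is filled, the intervals of Car6, Car8 and Car13 lie on one side of 0, and the filled genes are Slc26a6 and Atp6v0a4.

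Of the 6 further family rows, Car1, Car5a, Car10 and Car14 were at or near the floor, and Car7 and Car15 had low counts. Per kb, Car15 stood at 15.8, above the members Car11 and Car4, and Car7 at 3.37, above Car9 and Car3. Car1 and Car14 had 0 counts in all libraries, and Car5a and Car10 had 1 count in 1 library each, so a difference in these 4 was not detectable at this depth. Car7 had 7 to 19 counts per library and differed by -0.29 on the log2 scale (SE 0.65, DESeq2 adjusted p = 0.927). Car15 had 22 to 36 counts and differed by 0.22 (SE 0.41, DESeq2 adjusted p = 0.912).

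The transporters that move the bicarbonate and protons made by these enzymes were followed as a list of 24 genes, of which 20 were tested. By DESeq2, 1 rose (Slc26a6) and 1 fell (Atp6v0a4), against 1.02% and 1.88% of all rows. Its unadjusted p-value was under 0.05 for 5 of the 20, against 12.2% of all rows. The groups did not overlap for 8 of the 20, with 2 higher and 6 lower. Rows without overlap made up 20.3% of all rows, 9.85% higher and 10.5% lower. Among the 6 lower was Slc4a2, with a log2 fold change of only -0.07. The median log2 fold change of the 20 was -0.19. Under edgeR and limma-voom 0 passed the threshold.

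Slc26a6, an exchanger of chloride for bicarbonate and oxalate at the luminal membrane, gave 270, 312 and 296 normalized counts in WT 1, 4 and 5, and 448, 431 and 492 in DKO 1, 4 and 5. All DKO libraries were above all WT libraries. It rose by 0.64 on the log2 scale (SE 0.14, DESeq2 adjusted p = 0.000701). Omitting any 1 library kept the call, at an adjusted p of 0.0246 or less. It did not pass by edgeR (adjusted p = 0.0743) or limma-voom (adjusted p = 0.0826). Scaling by total counts gave 0.41 (DESeq2 adjusted p = 0.0611), and without both WT 5 and DKO 1 the value was 0.66 (DESeq2 adjusted p = 0.118).

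Atp6v0a4, a subunit of the proton pump of acid-secreting cells, gave 44.5, 4.89 and 53.7 normalized counts in WT 1, 4 and 5, and 4.74, 5.23 and 2.31 in DKO 1, 4 and 5. WT 4 lay within the range of the DKO libraries, so the call rested on WT 1 and WT 5. On the log2 scale it fell by 3.06 (SE 0.81, DESeq2 adjusted p = 0.0101). The adjusted p-value was 0.199 without WT 1 and 0.315 without WT 5, 0.0854 without DKO 4 and 0.136 without DKO 5, 0.462 without both WT 5 and DKO 1, 0.177 by edgeR and 0.406 by limma-voom.

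None of the more abundant transporters described here, with at least 500 normalized counts on average, passed. These were the anion exchanger Slc4a2, the sodium bicarbonate cotransporter Slc4a7, the bicarbonate transporter family member Slc4a11, the chloride channel Cftr and the proton pump subunit Atp6v0d2. Their log2 fold changes ran from -0.42 for Slc4a11 (SE 0.18, DESeq2 adjusted p = 0.244) through -0.30 for Cftr (SE 0.21, adjusted p = 0.604) to 0.00 for Slc4a7 (SE 0.13, adjusted p = 0.997). Cftr had 939, 555 and 1164 normalized counts in DKO 1, 4 and 5 against 996 to 1148 in the WT libraries, and without DKO 4 its value was -0.05. Slc26a3 and Slc26a4 had 0 counts in all 6 libraries.

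Scaling mattered for the sign of small changes. With total counts in place of median-of-ratios size factors, the median log2 fold change of all rows moved to -0.23. Against that shift Car6 stood at 0.21, Car8 at -0.67 (DESeq2 adjusted p = 0.00367) and Car13 at -0.60 (DESeq2 adjusted p = 0.00104), so that Car8 and Car13 passed the threshold in that fit, in which 1469 rows passed. Calls were also split differently, with 62 rows higher and 1407 lower, against 189 higher and 350 lower with size factors.

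**Figure D5:**
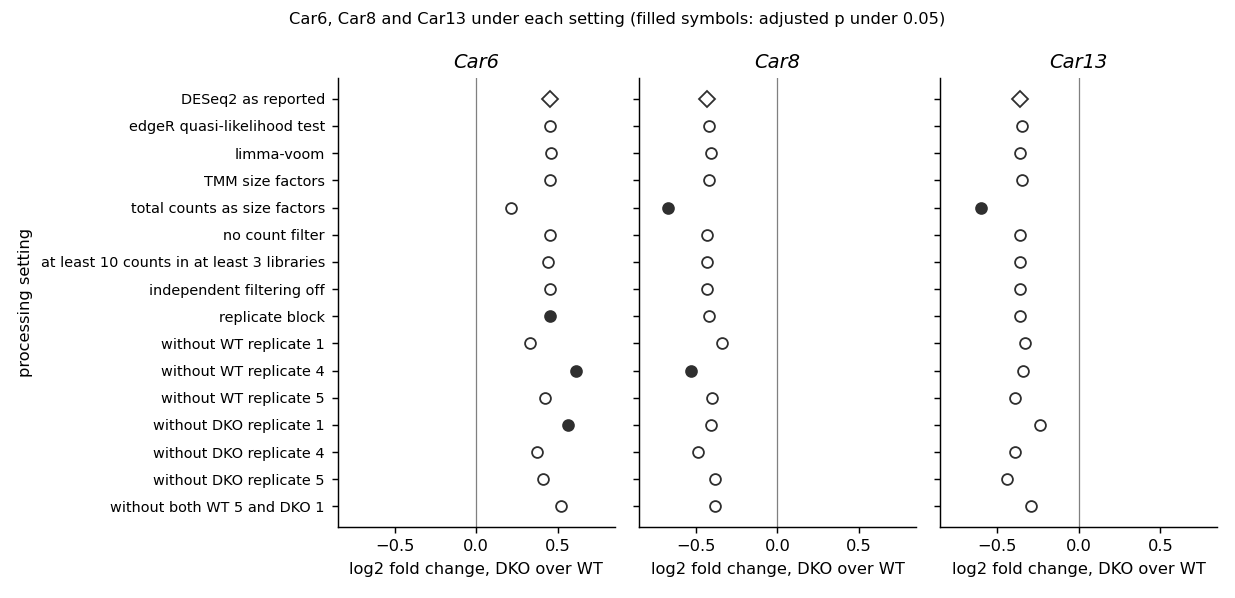
Log2 fold change, DKO over WT, of Car6, Car8 and Car13 (panels) under each processing setting (rows), with filled symbols for an adjusted p-value under 0.05 and a diamond for the value as reported. All values of Car6 lie above 0 and all values of Car8 and Car13 below 0, while the filled symbols are 3 for Car6, 2 for Car8 and 1 for Car13.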

How the data were processed

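RNA of 6 submandibular glands was sequenced from unstranded Nextera XT libraries on a HiSeq2500. The values are raw counts for each gene symbol, as deposited. Per the labels' processing notes, STAR 2.5.2a and the mouse build GRCm38 (mm10) were used, and the notes also list GRCh38. The counting tool and annotation were not given in the sources used here. A filtered copy of the counts and a table of scaled values were not used.

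Rows with at least 10 summed counts were tested with DESeq2 1.42.0 in R 4.3.3. The settings were median-of-ratios size factors, a two-sided Wald test, default filters, Benjamini-Hochberg adjustment over all rows and a threshold of 0.05. The study's methods name DESeq2, the Wald test, the adjustment and the threshold. The study also selected genes on a 2-fold change, while no minimum fold was set here. Intervals are 95%. Alternatives used edgeR 4.0.16, limma 3.58.1 (voom), other size factors and filters, a replicate block and left-out libraries. The fits were tested on simulated data. The sources used here do not say whether each library was from a different mouse, so p-values measure the spread between these samples. No pair of libraries of one group agreed within sampling noise (chi-square per degree of freedom from 16.8 to 43.4).

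Members and lists were chosen with earlier results of these data known. The genes named are the members, the targeted genes, the other family rows, acid-base genes that passed the threshold or averaged at least 500 normalized counts, listed markers, and the 3 rows most like Car6 (pseudocount 1); Slc26a3 and Slc26a4 were added after their values were seen. Individual values of some listed genes are not reported here, though list counts and sums include them. Coordinates, exon lengths and coding stretches come from GENCODE M21 (GRCm38), matched by symbol, which held 39469 of the 43280 row names (91.2%). Coding stretches are from the longest open reading frame, aligned to Car2 as protein with Biopython 1.88.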

Additional observations from a re-analysis of the deposited data

How the results depend on the processing

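Of 148 values of the 10 members under the alternatives, 135 kept their direction and their side of the threshold. No member passed in the fit as reported, so fits that called few rows kept the side readily. A missing adjusted p-value, as in most fits of Car3, was scored as not passing. The number of rows called over the whole table was 539, and it was 10 by edgeR, 7 by limma-voom, 1469 with total counts, 343 with the replicate number as a block, 180 without both WT 5 and DKO 1 (a fit chosen after seeing the data) and between 146 and 815 with 1 library left out. The number of members called was 0, and it was 2 with total counts, 1 with the block and between 0 and 2 with 1 library left out. The number of acid-base genes called was 2, and it was 0 by edgeR and limma-voom, 5 with total counts, 1 with at least 10 counts in at least 3 libraries (a filter that drops Atp6v0a4), 1 with the block, 0 without both WT 5 and DKO 1 and between 1 and 3 with 1 library left out. The cause was not tested.

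Total counts as size factors turned the log2 fold changes of Car2 (-0.10), Car5b (-0.06), Car12 (-0.18), Car15 (-0.01) and Slc4a7 (-0.23), where the median of all rows was -0.23, and brought Car8 (-0.67), Car13 (-0.60), Slc4a11 and Atp6v0d2 under the threshold. With 1 library left out, Car6 ran from 0.33 to 0.61, Car8 from -0.53 to -0.34, Car9 from -0.29 to 1.01 and Car12 from -0.00072 to 0.14. Of the values that turned in those fits, Car7 was 0.03 without WT 1 (range -0.76 to 0.03), and Slc4a7 was -0.07 without WT 5 or DKO 4 and -0.02 without DKO 1 (range -0.07 to 0.10). Slc4a7 also turned with the stricter filter (-0.00066), with the block (-0.00056) and without both WT 5 and DKO 1 (-0.10), where Car9 turned to -0.62.

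Libraries of the same number did not deviate together, with correlations over 11489 rows of -0.133, -0.0244 and -0.259 for numbers 1, 4 and 5. No library correlated best with its own number, and the numbers were not taken as pairs. The highest correlation, 0.446, was that of WT 5 with DKO 1, the libraries with sublingual and parotid genes. This comparison therefore cannot settle whether the numbers mark pairs. With the replicate block, Car6 had a log2 fold change of 0.45 and passed the threshold (DESeq2 adjusted p = 0.00218), Slc26a6 kept its call and Atp6v0a4 lost it (adjusted p = 0.0991). At this depth Car3, Car4, Car9 and Car11 had at most 31 counts in any library. The SEs of their log2 fold changes were between 0.53 (Car4 and Car11) and 1.26 (Car3), so small changes in these genes were not detectable. The stricter filter gave no value for Car3, Car9 and Atp6v0a4.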
